A study of Homo sapiens with 12 samples.

Results

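The tubulin genes TUBA1A, TUBA1B, TUBA1C, TUBA4A, TUBB, TUBB2A, TUBB2B, TUBB4B, TUBB6 and TUBG1 were followed through RNA-seq of CCRF-CEM, an established human T lymphoblast leukemia line. The 10 members were chosen by symbol and make up 10 of the 44147 gene features in the files. Cells of a line with the SLFN11 gene knocked out and cells of the wild-type parent line received prexasertib, which blocks the kinase CHK1 of the replication checkpoint, at 100 nM over 6 h, or received DMSO. SLFN11 encodes a protein that acts at stalled replication forks, and the series title gives its role in the response to replication stress as the question. The 4 groups were knockout cells labelled prexasertib, knockout cells labelled DMSO, parent cells labelled prexasertib and parent cells labelled DMSO, with 3 libraries each and 12 in all. The labels give 1 knockout line and do not say how it was made. No label says whether the 3 libraries of a group are separate cultures, and the p-values then cover only library-to-library spread, possibly technical.

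Records and files disagree on the treatment. For all 12 records, the title names a library whose file sits under the opposite treatment of that line. Here the record a file belongs to sets its group, written "labelled prexasertib" or "labelled DMSO". Should the titles' library names be right, every treatment difference and every difference between the lines in the response changes sign, and the comparison of the lines under labelled prexasertib changes places with that under labelled DMSO.

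Microtubules are built from dimers of alpha-tubulin and beta-tubulin, and gamma-tubulin in ring complexes starts their growth. Vertebrates carry several genes for alpha-tubulin and beta-tubulin, whose proteins are nearly alike in the folded core and differ mostly in the acidic tail at the carboxyl end, where modifying enzymes and motor proteins act. Dividing cells take their spindle from the same dimers that build the interphase network. Cells also limit tubulin production after transcription: when free dimers are in excess, the factor TTC5 binds nascent alpha-tubulin and beta-tubulin chains on the ribosome, and their mRNA is degraded through the CCR4-NOT deadenylase.

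The start of the coding sequence is shown because it encodes the end of the chain that TTC5 reads. The first 12 coding bases of each member follow, from GENCODE v29 transcripts (GRCh38). Capitals mark the second to the fourth codon where the second encodes arginine and the third glutamate.
TUBA1A: atgCGTGAGTGC
TUBA1B: atgCGTGAGTGC
TUBA1C: atgCGTGAGTGC
TUBA4A: atgCGTGAATGC
TUBB: atgAGGGAAATC
TUBB2A: atgCGCGAGATC
TUBB2B: atgCGTGAGATC
TUBB4B: atgAGGGAAATC
TUBB6: atgAGGGAGATC
TUBG1: atgccgagggaa
The 9 alpha and beta members share this pattern, with synonymous codons, and TUBG1 lacks it.

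The end of the coding sequence is shown because it encodes the acidic tail. The last 60 coding bases of the 5 beta members follow, from the same source, with the stop codon in capitals.
TUBB: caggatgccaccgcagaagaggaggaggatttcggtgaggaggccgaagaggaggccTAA
TUBB2A: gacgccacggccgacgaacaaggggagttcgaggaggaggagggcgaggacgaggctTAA
TUBB2B: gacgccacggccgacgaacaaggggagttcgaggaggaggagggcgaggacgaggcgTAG
TUBB4B: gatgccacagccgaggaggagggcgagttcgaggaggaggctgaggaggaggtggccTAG
TUBB6: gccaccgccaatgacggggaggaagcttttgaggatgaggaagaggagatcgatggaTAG
Compared position by position over these 60 bases, without gaps, TUBB2A and TUBB2B were 96.7% identical, TUBB and TUBB4B 55.0% and TUBB4B and TUBB6 58.3%. Ends that are out of register, as those of TUBB and TUBB4B are, score low in this way. These values therefore do not measure how far the tails differ and cannot be set beside the aligned ones that follow. Over the whole coding sequence, aligned with gaps, TUBB2A and TUBB2B were 98.1% identical, with an identical run of 725 bases. Among the alpha members TUBA1B and TUBA1C were 97.3% identical, TUBA1A and TUBA1B 97.2%, and TUBA1A and TUBA1C 96.3%. Reads from such stretches may be assigned to the wrong copy or left out, and the rule for multiply placed reads was not given in the sources used here, so single values of TUBA1A, TUBA1B, TUBA1C, TUBB2A and TUBB2B are uncertain. TUBB and TUBB4B were 84.6% identical, and their longest identical run was 35 bases.

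Each library held 47887791 to 77548202 exonic reads. SLFN11 RNA was lower in the knockout line but not absent, by -0.41 in labelled prexasertib (SE 0.05, edgeR adjusted p = 5.5e-07) and -0.51 in labelled DMSO (SE 0.05, edgeR adjusted p = 6.0e-09) as log2 fold changes, and a disrupted gene can still be transcribed. The T-lineage marker CD3D stood at 356 to 531 TPM and all 8 T-lineage markers were read in every group. Their summed level was 995 to 1030.0 TPM in knockout libraries labelled prexasertib and 953 to 982 TPM in those labelled DMSO, and 779 to 847 TPM in parent libraries labelled prexasertib and 657 to 679 TPM in those labelled DMSO. Of 15 B-cell, myeloid, erythroid, epithelial and fibroblast markers, MS4A1 was at 0 throughout, CD79A reached 28.5 TPM, EPCAM reached 5.57 TPM and the others stayed under 1 TPM. The sum of these 15 was 31.3 to 33.02 TPM in knockout libraries labelled prexasertib and 31.2 to 34.9 TPM in those labelled DMSO, and 15.8 to 18.6 TPM in parent libraries labelled prexasertib and 13.4 to 14.1 TPM in those labelled DMSO. Of the sum of exonic and intronic reads, introns held 24.9 to 26.0% across the knockout libraries. Across the parent ones they held 23.9 to 26.4%, except for parent labelled prexasertib replicate 1, at 30.3%. Whether marker levels or the intronic share had a part in the differences below was not tested.

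Expressed per transcript length, TUBA1B and TUBB were the most abundant members in all 4 groups. TUBA1B averaged 1474 ± 25.1 TPM in knockout cells labelled prexasertib and 1415 ± 27.4 TPM in knockout cells labelled DMSO. In parent cells it averaged 1079 ± 108 TPM in labelled prexasertib and 796 ± 22.4 TPM in labelled DMSO (SD, n = 3 each). TUBB, the main beta gene, averaged 1012 ± 7.62 TPM in knockout cells labelled prexasertib and 910.0 ± 21.8 TPM in those labelled DMSO, and 834 ± 27.6 TPM in parent cells labelled prexasertib and 553 ± 11.8 TPM in those labelled DMSO. In each group the ranges of TUBA1B, of TUBB and of the gene below them did not overlap.

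Below these, the order of levels depended on the group. TUBB4B followed TUBB in knockout cells labelled DMSO, at 361 ± 15.6 TPM, where its range overlapped that of TUBA1C, and in parent cells labelled DMSO, at 259 ± 9.37 TPM. In labelled prexasertib TUBA1C stood above TUBB4B in both lines, and TUBB4B, at 162 ± 7.25 TPM in parent cells, overlapped TUBA1A. TUBB2A ranged between group means of 27.0 and 104.0 TPM, TUBG1 between 27.2 and 37.9 TPM and TUBB2B between 9.82 and 34.7 TPM. TUBB6 and TUBA4A were the least abundant, with TUBB6 between 7.71 and 11.16 TPM and TUBA4A between 5.80 and 8.67 TPM, and in parent cells labelled prexasertib their ranges overlapped.

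**Figure D1:**
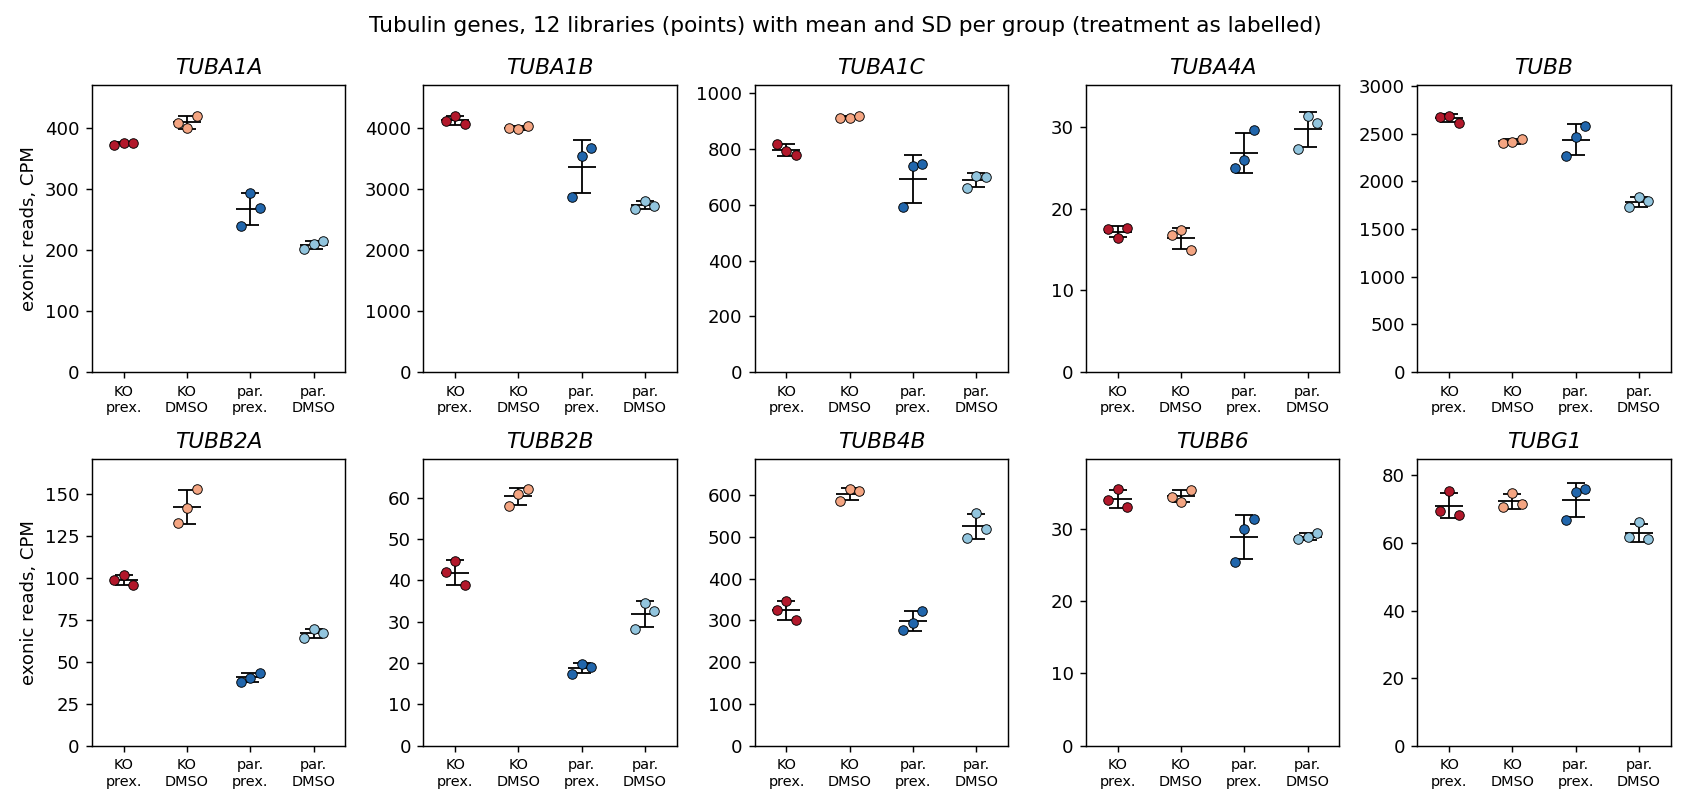
Exonic CPM (TMM-scaled) of each tubulin gene in the 12 libraries; points are libraries, bars the group mean ± SD (n = 3), and the vertical axis of each panel starts at 0. TUBB4B, TUBB2A and TUBB2B lie lower in labelled prexasertib than in labelled DMSO in both lines, and TUBA1A, TUBA1B, TUBB2A and TUBB2B lie higher in knockout than in parent libraries.

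Prexasertib-labelled libraries of both lines had less RNA of 3 beta-tubulin genes, TUBB4B, TUBB2A and TUBB2B, while TUBB and the alpha-tubulin genes TUBA1A and TUBA1B were higher in parent cells and TUBA1C, more abundant there than TUBA1A, was not called. The fall of TUBB4B was the largest among the members in both lines, to 0.537 times the labelled DMSO level in knockout cells and 0.569 times in parent cells. TUBA4A and TUBB6 passed in neither line. The test was edgeR's quasi-likelihood fit of exonic reads over 23045 genes, and calls needed an adjusted p (Benjamini-Hochberg) no larger than 0.05. In knockout cells 0 members were called higher and 4 lower, against 6.11% and 6.83% of all genes tested; at an unadjusted p under 0.05 edgeR gave 1 higher, TUBB, and both DESeq2 and limma on TPM called 1 higher. In parent cells 4 members were called higher and 3 lower, against 18.2% of all genes in each direction. The median log2 fold change of the members was -0.08 in knockout cells, where that of all genes was -0.00, and 0.00 in parent cells, where that of all genes was 0.04. In bulk RNA, fewer cells of a type and less RNA per cell cannot be told apart.

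Among the alpha-tubulin genes, TUBA1A, the form prominent in developing neurons, had 372, 376 and 375 CPM in knockout libraries labelled prexasertib, against 407, 399 and 419.5 CPM in those labelled DMSO. In parent libraries it had 239, 292 and 268 CPM in labelled prexasertib, against 202, 209 and 214 CPM in labelled DMSO. The groups did not overlap in either line, and the order was opposite: lower in labelled prexasertib in the knockout line and higher in it in the parent line. The log2 fold change was -0.13 (SE 0.06, edgeR adjusted p = 0.17) in knockout cells and 0.36 (SE 0.06, edgeR adjusted p = 1.8e-05) in parent cells. The knockout difference passed without parent labelled prexasertib replicate 1 (-0.12, edgeR adjusted p = 0.0096) and in a fit of the knockout libraries alone (edgeR adjusted p = 0.0022).

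TUBA1B, the ubiquitous alpha form, had 4109.9, 4202 and 4058 CPM in knockout libraries labelled prexasertib, against 3993, 3979 and 4041 CPM in those labelled DMSO. Parent libraries had 2868, 3544 and 3679 CPM in labelled prexasertib, against 2673, 2805 and 2725 CPM in labelled DMSO. Replicate 1 of the parent libraries labelled prexasertib was the lowest of its group and lay just above the labelled DMSO libraries. The fitted log2 change was 0.04 (SE 0.07, edgeR adjusted p = 0.77) in knockout cells and 0.30 (SE 0.07, edgeR adjusted p = 0.00080) in parent cells, or 0.38 without that library. With exonic and intronic reads together the parent difference did not pass (edgeR adjusted p = 0.054). All exonic bases of TUBA1B also lie in another annotated feature, RP11-386G11.10, so its reads cannot be separated from those of that feature.

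TUBA1C, another widely expressed alpha form, was lower in knockout cells, with 819, 795 and 778 CPM in labelled prexasertib, against 914, 910.4 and 920.2 CPM in labelled DMSO. The difference of -0.20 (SE 0.06, edgeR adjusted p = 0.044) was close to the threshold and was lost without knockout labelled prexasertib replicate 1, 2 or 3, knockout labelled DMSO replicate 1, 2 or 3, or parent labelled DMSO replicate 3, at edgeR adjusted p values of 0.075 to 0.15, with all reads (edgeR adjusted p = 0.13) and with limma on TPM (adjusted p = 0.083). In parent cells its groups overlapped and the log2 fold change was 0.01 (SE 0.06). Only 2.73% of its exonic reads fell outside other genes, and those gave -0.71 (SE 0.10, edgeR adjusted p = 0.00019) in knockout cells and -0.45 (SE 0.11, edgeR adjusted p = 0.0026) in parent cells. TUBA4A, an alpha form best known from platelets and nerve, differed by 0.07 (SE 0.08) in knockout cells and -0.15 (SE 0.07, edgeR adjusted p = 0.12) in parent cells. The TUBA4A parent difference passed with all reads (-0.33, edgeR adjusted p = 0.0051), without parent labelled DMSO replicate 1 (-0.24, edgeR adjusted p = 0.018) and without parent labelled prexasertib replicate 3 (-0.23, edgeR adjusted p = 0.025).

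**Figure D2:**
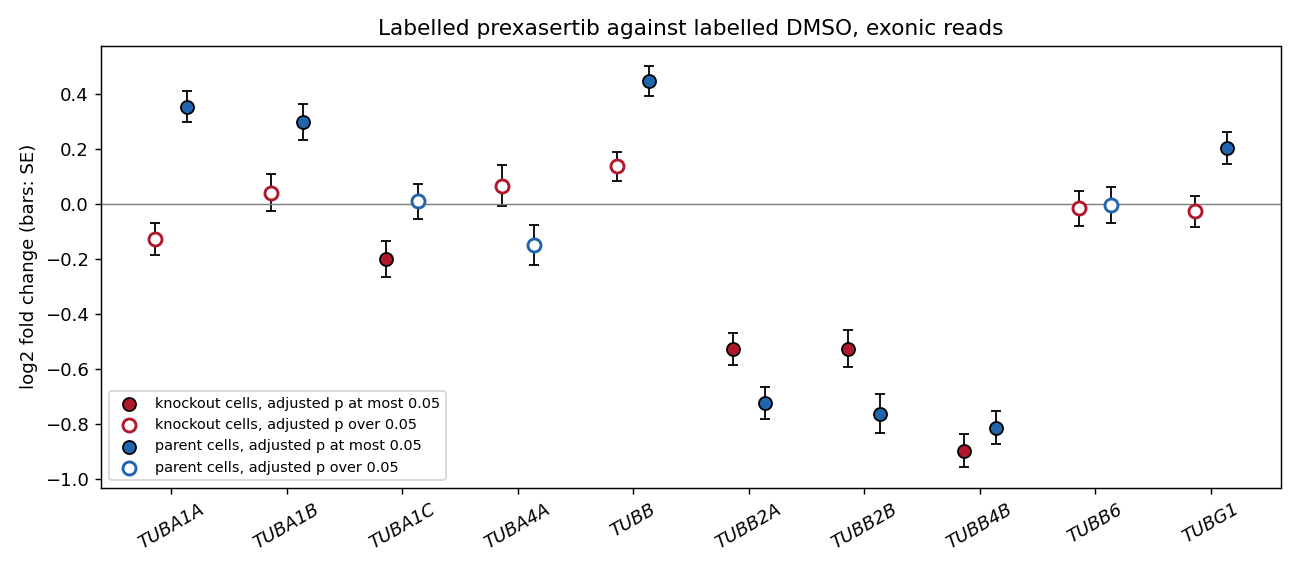
Log2 fold change of exonic reads, labelled prexasertib against labelled DMSO, for each tubulin gene in knockout (red) and parent (blue) cells; bars are the SE and filled points passed an adjusted p of at most 0.05. TUBB2A, TUBB2B and TUBB4B lie below 0 in both lines, TUBB, TUBA1A and TUBA1B lie above 0 with filled points in parent cells, and TUBB6 lies near 0 in both.

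Of the beta-tubulin genes, TUBB had 2681, 2689 and 2617 CPM in knockout libraries labelled prexasertib, against 2398, 2415 and 2449 CPM in those labelled DMSO. The parent libraries held 2266, 2464 and 2585 CPM in labelled prexasertib, against 1731, 1837 and 1789.8 CPM in labelled DMSO. The groups were apart in both lines, with labelled prexasertib higher. On the log2 scale the change was 0.14 (SE 0.05, edgeR adjusted p = 0.098) in knockout cells and 0.45 (SE 0.05, edgeR adjusted p = 2.0e-07) in parent cells. The knockout difference passed in 6 other settings, among them DESeq2 (adjusted p = 0.031) and the fit without parent labelled prexasertib replicate 1 (edgeR adjusted p = 0.00061).

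TUBB4B, a ubiquitous beta form also found in cilia, had 325, 346 and 301 CPM in knockout libraries labelled prexasertib, against 586, 613 and 610.0 CPM in those labelled DMSO. In parent libraries it had 278, 295 and 324 CPM in labelled prexasertib, against 497, 558 and 519 CPM in labelled DMSO. Every library labelled prexasertib lay below every library labelled DMSO, across lines as well as within them. The log2 fold change was -0.90 (SE 0.06, edgeR adjusted p = 3.2e-11) in knockout cells and -0.81 (SE 0.06, edgeR adjusted p = 4.5e-11) in parent cells.

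TUBB2A and TUBB2B, beta forms best known from neurons, are neighbours on chromosome 6. In the hg19 coordinates of the files TUBB2A lies at 3153903 to 3157760 and TUBB2B at 3224495 to 3231964, with 66734 bases between them. TUBB2A had 98.8, 102 and 95.4 CPM in knockout libraries labelled prexasertib, against 132, 142 and 153 CPM in those labelled DMSO. Parent libraries had 37.9, 40.5 and 43.6 CPM in labelled prexasertib, against 64.4, 69.7 and 67.2 CPM in labelled DMSO. Labelled prexasertib was the lower group in both lines, without overlap. The fitted log2 change was -0.53 (SE 0.06, edgeR adjusted p = 2.7e-07) in knockout cells and -0.72 (SE 0.06, edgeR adjusted p = 3.2e-10) in parent cells.

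TUBB2B had 42.0, 44.8 and 38.9 CPM in knockout libraries labelled prexasertib, against 58.0, 60.8 and 62.0 CPM in those labelled DMSO. The parent libraries held 17.4, 19.7 and 19.2 CPM in labelled prexasertib, against 28.3, 34.5 and 32.5 CPM in labelled DMSO. As for TUBB2A, the groups did not overlap in either line. On the log2 scale the change was -0.52 (SE 0.07, edgeR adjusted p = 3.7e-06) in knockout cells and -0.76 (SE 0.07, edgeR adjusted p = 3.1e-09) in parent cells. TUBB6, a divergent beta form common in muscle and many other tissues, differed by -0.01 (SE 0.06) in knockout cells and -0.00 (SE 0.07) in parent cells. Its intervals of ± 2 SE were -0.14 to 0.11 and -0.13 to 0.13. Only 17.2% of the TUBB6 exonic reads fell outside other genes, so these values rest mostly on shared reads. The reads outside gave -0.18 (SE 0.12, edgeR adjusted p = 0.35) in knockout cells and 0.26 (SE 0.13, edgeR adjusted p = 0.11) in parent cells.

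The promoters of the 3 beta genes that fell in both lines are shown because their RNA moved the same way. Each sequence is the 250 bases before the start given by RefSeq for GRCh38.p14, on the strand of the gene. TUBB4B is on the plus strand at chr9:137241037-137241286. TUBB2A and TUBB2B are on the minus strand at chr6:3157545-3157794 and chr6:3227654-3227903. Capitals mark 4 motifs on either strand. The CCAAT box and the element TTTGAA are known from promoters of cell cycle genes. The cAMP response element is TGACGTCA, which contains the shorter motif CGTCA.
TUBB4B: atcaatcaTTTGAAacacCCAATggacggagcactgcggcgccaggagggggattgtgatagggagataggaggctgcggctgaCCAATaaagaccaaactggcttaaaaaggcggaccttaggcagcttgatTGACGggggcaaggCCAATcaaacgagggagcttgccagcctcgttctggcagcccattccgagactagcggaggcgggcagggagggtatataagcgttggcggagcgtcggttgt
TUBB2A: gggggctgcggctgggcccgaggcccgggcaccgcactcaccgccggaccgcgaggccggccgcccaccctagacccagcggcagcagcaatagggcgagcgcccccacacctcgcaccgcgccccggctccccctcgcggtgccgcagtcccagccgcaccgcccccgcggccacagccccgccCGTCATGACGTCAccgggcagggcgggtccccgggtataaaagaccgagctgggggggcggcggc
TUBB2B: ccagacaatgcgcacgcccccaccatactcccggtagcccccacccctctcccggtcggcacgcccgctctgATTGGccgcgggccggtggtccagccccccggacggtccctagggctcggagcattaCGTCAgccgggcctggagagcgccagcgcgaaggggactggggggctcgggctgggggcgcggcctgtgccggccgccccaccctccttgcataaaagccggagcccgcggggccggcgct
The TUBB4B window held 3 matches to CCAAT, 1 to TTTGAA and 1 to CGTCA. That of TUBB2A held TGACGTCA at 60 bases before the start and 3 matches to CGTCA, at 65, 60 and 57 bases. The matches at 60 and 57 lie within TGACGTCA, 1 on each strand, so only that at 65 is a separate site. The TUBB2B window held 1 CCAAT and 1 CGTCA. Among 35116 RefSeq promoters the same 250 bases held CCAAT in 32%, CCAAT at least 3 times in 2.93%, TTTGAA in 13.3%, TGACGTCA in 1.65% and CGTCA in 21.2%. Counted in the same way, CGTCA occurred at least 3 times in 1.01%. RefSeq gives 2 starts for TUBB, of which the upstream one held 1 CCAAT and 1 CGTCA and the other held none of the 4 motifs. Members outside these 3 beta genes held such motifs too. TUBA1A held 2 matches to CCAAT, TUBG1 held 1, and the downstream start of TUBB6 held 1. The farthest downstream start of TUBA1C held 1 CCAAT and 2 matches to TTTGAA. TUBA1B and TUBA4A held none of the 4 motifs. The TUBB2A and TUBB2B windows were 58.2% identical over 237 aligned bases, far less alike than their coding sequences. These motifs were chosen after the sequences were seen, and a match is a description of letters, not of binding.

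TUBG1, the main gamma-tubulin gene, was higher in parent cells labelled prexasertib, with 66.8, 75.1 and 75.8 CPM, against 61.6, 66.1 and 61.3 CPM in parent cells labelled DMSO. The groups were close but did not overlap, and the log2 fold change of 0.20 (SE 0.06, edgeR adjusted p = 0.0060) was lost without parent labelled DMSO replicate 1 (0.15, edgeR adjusted p = 0.067) and with all reads (0.13, edgeR adjusted p = 0.17). In knockout cells TUBG1 had 69.5, 75.3 and 68.4 CPM in labelled prexasertib, against 70.7, 74.7 and 71.5 CPM in labelled DMSO. Those groups overlapped, with a log2 fold change of -0.03 (SE 0.06) and an interval of ± 2 SE of -0.14 to 0.09.

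In the summed beta-tubulin RNA the shares of single genes differed between the treatments in both lines. TUBB4B made up 14.9 ± 0.67% of the summed TPM of the 5 beta members in knockout cells labelled prexasertib, against 25.4 ± 0.32% in knockout cells labelled DMSO. In parent cells it made up 15.6 ± 0.31% in labelled prexasertib, against 29.5 ± 0.59% in labelled DMSO (SD, n = 3 each). TUBB made up 76.9 ± 0.81% in knockout cells labelled prexasertib, against 64.1 ± 0.55% in those labelled DMSO, and 80.0 ± 0.29% in parent cells labelled prexasertib, against 63.2 ± 0.64% in those labelled DMSO. None of these ranges overlapped between treatments, and shares of a whole are not independent of each other. TUBB2A and TUBB2B together with TUBB6 made up the rest.

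The summed beta level was 1317 ± 20.1 TPM in knockout cells labelled prexasertib, against 1421 ± 44.0 TPM in those labelled DMSO, and 1041 ± 35.8 TPM in parent cells labelled prexasertib, against 875 ± 19.6 TPM in those labelled DMSO. Summed alpha-tubulin RNA was 2017 ± 25.3 TPM in knockout cells labelled prexasertib, against 2017 ± 36.7 TPM in those labelled DMSO, and 1475 ± 140.1 TPM in parent cells labelled prexasertib, against 1124 ± 24.6 TPM in those labelled DMSO. The alpha ranges overlapped between treatments in knockout cells and did not in parent cells. Within the alpha members TUBA1B held 70.0 to 74.0% of the sum in each of the 12 libraries.

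**Figure D3:**
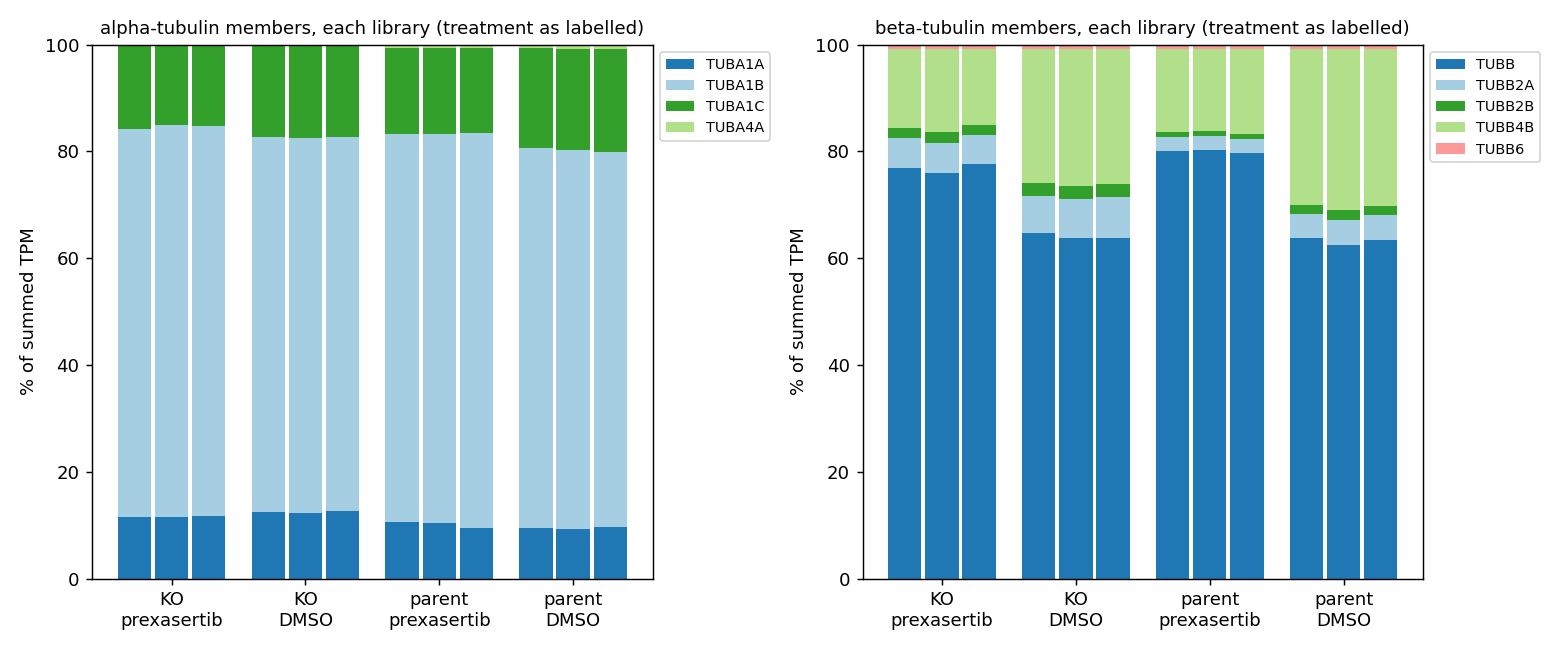
Share of each member in the summed TPM of the 4 alpha-tubulin genes (left) and the 5 beta-tubulin genes (right), as percent, 1 bar per library, 3 libraries per group. In the beta panel TUBB4B takes 14.23 to 15.9% of each bar in labelled prexasertib and 25.2 to 30.2% in labelled DMSO, while the alpha bars differ little between groups.

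Knockout cells had more RNA of most tubulin genes than parent cells. In labelled DMSO 9 members were called higher in the knockout line and 1, TUBA4A, was called lower, against 19.6% and 20.4% of all genes tested. In labelled prexasertib 6 were called higher and 1, again TUBA4A, lower, against 14.5% and 13.5% of all genes. The median log2 fold change of the members was 0.22 in labelled prexasertib and 0.42 in labelled DMSO, where the medians of all genes were -0.02 and -0.01. On the log2(TPM + 1) scale with limma the median of all genes stood higher than by edgeR, by 0.10 in labelled prexasertib and 0.16 in labelled DMSO. Differences of that size in those comparisons depend on the scaling.

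TUBB2A differed most between the lines in both comparisons, followed by TUBB2B in labelled prexasertib and by TUBA1A in labelled DMSO. The log2 fold change of TUBB2A was 1.28 (SE 0.06, edgeR adjusted p = 9.9e-15) in labelled prexasertib and 1.08 (SE 0.06, edgeR adjusted p = 8.8e-14) in labelled DMSO. For TUBB2B it was 1.16 (SE 0.07) and 0.92 (SE 0.07) in the same order. Every knockout library lay above every parent library for both genes, whatever the treatment label.

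The alpha genes TUBA1A, TUBA1B and TUBA1C were also higher in the knockout line. TUBA1A differed by 0.49 (SE 0.06, edgeR adjusted p = 2.8e-07) in labelled prexasertib and 0.97 (SE 0.06, edgeR adjusted p = 5.1e-13) in labelled DMSO, with every knockout library above every parent library. TUBA1B differed by 0.29 (SE 0.07) in labelled prexasertib and 0.55 (SE 0.07) in labelled DMSO. For TUBA1C the values were 0.20 (SE 0.06, edgeR adjusted p = 0.022) and 0.41 (SE 0.06, edgeR adjusted p = 1.3e-05), and the first was lost without knockout labelled prexasertib replicate 1 (edgeR adjusted p = 0.10) and with reads outside other genes (0.09, edgeR adjusted p = 0.56).

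TUBA4A went the other way. It had 17.5, 16.4 and 17.6 CPM in knockout libraries labelled prexasertib, against 25.0, 26.0 and 29.6 CPM in parent libraries so labelled. In labelled DMSO it had 16.8, 17.4 and 14.9 CPM in knockout libraries, against 27.3, 31.4 and 30.5 CPM in parent libraries. All knockout libraries lay below all parent libraries. The log2 fold change was -0.64 (SE 0.08, edgeR adjusted p = 2.9e-07) in labelled prexasertib and -0.86 (SE 0.07, edgeR adjusted p = 6.3e-10) in labelled DMSO.

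Of the other members, TUBB passed in labelled DMSO, at 0.44 (SE 0.05, edgeR adjusted p = 2.5e-07), and not in labelled prexasertib, at 0.13 (SE 0.05, edgeR adjusted p = 0.081). That value passed with DESeq2 (adjusted p = 0.037), with limma on the authors' TPM (0.28, adjusted p = 0.00013), and without parent labelled DMSO replicate 1 or 2, parent labelled prexasertib replicate 3 or knockout labelled DMSO replicate 1 (edgeR adjusted p = 0.023 to 0.037). TUBB4B differed by 0.12 (SE 0.06, edgeR adjusted p = 0.16) in labelled prexasertib and 0.20 (SE 0.06, edgeR adjusted p = 0.0089) in labelled DMSO. The DMSO call was lost without parent labelled DMSO replicate 1 (edgeR adjusted p = 0.072) or knockout labelled DMSO replicate 2 (edgeR adjusted p = 0.064) and with all reads (0.17, edgeR adjusted p = 0.089). The TUBB4B prexasertib difference passed without parent labelled prexasertib replicate 3 (0.18, edgeR adjusted p = 0.036) and with limma on the authors' TPM (0.27, adjusted p = 0.0028). For TUBB and TUBB4B alike, this limma value is on a scale where the median of all genes stood 0.10 higher than by edgeR.

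TUBG1 differed by -0.03 (SE 0.06) in labelled prexasertib and 0.20 (SE 0.06, edgeR adjusted p = 0.0064) in labelled DMSO, and the DMSO call was lost without knockout labelled DMSO replicate 2 (edgeR adjusted p = 0.071) and with all reads (0.16, edgeR adjusted p = 0.075). TUBB6 differed by 0.24 (SE 0.07, edgeR adjusted p = 0.0062) in labelled prexasertib and 0.25 (SE 0.06, edgeR adjusted p = 0.0024) in labelled DMSO. The TUBB6 counts include reads shared with AFG3L2, and the 17.2% outside other genes gave 0.62 (SE 0.12, edgeR adjusted p = 0.00039) and 1.05 (SE 0.12, edgeR adjusted p = 2.0e-07).

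**Figure D4:**
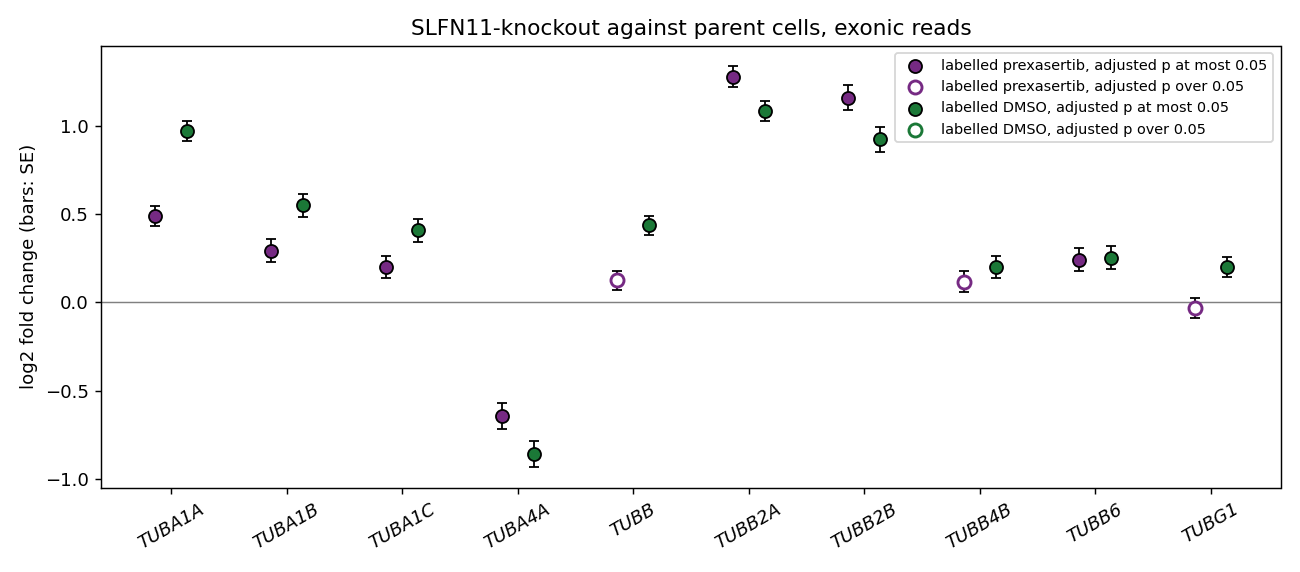
Log2 fold change of exonic reads, knockout against parent cells, for each tubulin gene in labelled prexasertib (purple) and labelled DMSO (green); bars are the SE and filled points passed an adjusted p of at most 0.05. TUBB2A stands highest in both comparisons, followed by TUBB2B in labelled prexasertib and by TUBA1A in labelled DMSO. TUBA4A lies below 0 in both, and for TUBA1A, TUBA1B, TUBA1C and TUBB the DMSO value lies above the prexasertib value.

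The response to the treatment was compared between the lines as the interaction, coded as parent response minus knockout response on the log2 scale. It passed for 2 members, TUBA1A and TUBB, both above 0, and for 0 members below 0, against 7.32% and 9.53% of all genes tested. Below 0 edgeR gave 2 members at an unadjusted p under 0.05, and DESeq2 and limma on TPM called 0. TUBA1A responded by -0.13 in knockout cells and 0.36 in parent cells, a difference of 0.48 (SE 0.08, edgeR adjusted p = 0.00011). TUBB responded by 0.14 in knockout cells and 0.45 in parent cells, a difference of 0.31 (SE 0.08, edgeR adjusted p = 0.0047), which did not pass with all reads (0.23, edgeR adjusted p = 0.14). For TUBA1A the knockout and parent lines thus lay 0.97 apart in labelled DMSO and 0.49 apart in labelled prexasertib.

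Parent labelled prexasertib replicate 1, the library with the high intronic share, weighed on the interaction. Without it 5 members passed: TUBA1A at 0.52, TUBB at 0.33, TUBA1B at 0.33 (edgeR adjusted p = 5.1e-07), TUBA1C at 0.28 (edgeR adjusted p = 2.7e-05) and TUBG1 at 0.26 (edgeR adjusted p = 0.0039). With it TUBA1B stood at 0.26 (SE 0.09, edgeR adjusted p = 0.063), TUBA1C at 0.21 (SE 0.09, edgeR adjusted p = 0.13) and TUBG1 at 0.23 (SE 0.08, edgeR adjusted p = 0.051). With all 12 libraries TUBA1B also passed with no filter on low counts (edgeR adjusted p = 0.023), with a mean CPM of at least 1 (edgeR adjusted p = 0.041), with DESeq2 (adjusted p = 0.046) and with limma on TPM (0.38, adjusted p = 0.013). TUBG1 passed with a mean CPM of at least 1 (edgeR adjusted p = 0.038) and with limma on TPM (0.35, adjusted p = 0.011), and TUBA1C with limma on TPM (0.33, adjusted p = 0.020). The interaction of TUBB4B was 0.08 (SE 0.09), with an interval of ± 2 SE of -0.09 to 0.25. Those of TUBB2A and TUBB2B were -0.19 (SE 0.08, edgeR adjusted p = 0.12) and -0.24 (SE 0.10, edgeR adjusted p = 0.11). Both of these passed without parent labelled DMSO replicate 1 (edgeR adjusted p = 0.036 and 0.0083), TUBB2A also without parent labelled prexasertib replicate 3 (edgeR adjusted p = 0.049) and where a mean CPM of at least 1 was required (edgeR adjusted p = 0.044), and TUBB2B also without knockout labelled prexasertib replicate 3 (edgeR adjusted p = 0.037). TUBG1 also passed without knockout labelled prexasertib replicate 2 (edgeR adjusted p = 0.038).

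Intronic reads come from RNA that is not yet spliced and were counted separately by the authors. They were few beside exonic reads, for example 50 to 302 reads per library for TUBB4B, whose introns span 384 bases, and 43 to 206 for TUBB2A. The test ran on 19852 genes and covered 9 members, all but TUBB2B. In knockout cells 6 members were called, 1 higher and 5 lower, where 12% of all genes were called in either direction. In parent cells 4 members were called, 0 higher and 4 lower (TUBA4A, TUBB4B, TUBB2A and TUBA1C), where 30.8% of all genes were called in either direction. At an unadjusted p under 0.05 edgeR also gave 0 higher in parent cells.

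TUBB4B had 2.92, 2.57 and 2.71 intronic CPM in knockout libraries labelled prexasertib, against 4.62, 3.58 and 5.21 in those labelled DMSO. In parent libraries it had 2.73, 4.04 and 3.26 intronic CPM in labelled prexasertib, against 8.79, 14.03 and 10.96 in labelled DMSO. Labelled prexasertib was lower in both lines without overlap, and the parent libraries labelled DMSO stood above all others. The fitted log2 change was -0.70 (SE 0.22, edgeR adjusted p = 0.036) in knockout cells and -1.75 (SE 0.20, edgeR adjusted p = 7.7e-07) in parent cells. The knockout call was lost without knockout labelled prexasertib replicate 1, 2 or 3 or knockout labelled DMSO replicate 1 or 3 (edgeR adjusted p = 0.079 to 0.15).

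TUBB2A had 2.97, 3.75 and 4.88 intronic CPM in knockout libraries labelled prexasertib, against 7.50, 8.63 and 7.76 in those labelled DMSO. Parent libraries had 2.25, 2.48 and 2.60 intronic CPM in labelled prexasertib, against 6.69, 7.76 and 6.87 in labelled DMSO. For this gene every library labelled prexasertib lay below every library labelled DMSO, across lines as well as within them. On the log2 scale the change was -1.04 (SE 0.18, edgeR adjusted p = 0.00037) in knockout cells and -1.55 (SE 0.19, edgeR adjusted p = 1.8e-06) in parent cells.

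TUBA4A, whose exonic reads had not passed in either line, had 1.71, 1.54 and 1.22 intronic CPM in knockout libraries labelled prexasertib, against 3.06, 2.89 and 2.71 in those labelled DMSO. The parent libraries held 1.52, 2.61 and 2.54 intronic CPM in labelled prexasertib, against 9.28, 10.7 and 11.3 in labelled DMSO. The parent libraries labelled DMSO were far above the other 9 libraries. The log2 fold change was -0.95 (SE 0.23, edgeR adjusted p = 0.0092) in knockout cells and -2.24 (SE 0.21, edgeR adjusted p = 2.9e-08) in parent cells. Of its intronic reads 42.7% lay outside other genes, and those gave -0.62 (SE 0.35, edgeR adjusted p = 0.27) in knockout cells and -2.59 (SE 0.32, edgeR adjusted p = 1.5e-06) in parent cells. The knockout call was also lost without knockout labelled prexasertib replicate 3 (edgeR adjusted p = 0.060).

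TUBB differed by 0.35 (SE 0.11, edgeR adjusted p = 0.047) in intronic reads of knockout cells and by -0.14 (SE 0.11, edgeR adjusted p = 0.40) in those of parent cells. The knockout call was lost in 8 of the 12 fits that each left out 1 library (edgeR adjusted p = 0.055 to 0.27): those without any 1 of the 3 parent labelled DMSO or the 3 knockout labelled DMSO libraries, or without knockout labelled prexasertib replicate 1 or 3. It was also lost with reads outside other genes (0.33, edgeR adjusted p = 0.066). TUBA1C differed by -0.75 (SE 0.12) in knockout cells and -1.14 (SE 0.12) in parent cells and TUBA1A by -0.40 (SE 0.11) and -0.04 (SE 0.12). The TUBA1A knockout call was lost without knockout labelled prexasertib replicate 1, 2 or 3 or knockout labelled DMSO replicate 1 or 2 (edgeR adjusted p = 0.053 to 0.093). For these 2 genes only 5.54% and 12.7% of intronic reads lay outside other genes, since the TUBA1C gene spans part of TUBA1A. With those reads TUBA1C passed in neither line (edgeR adjusted p = 0.29 in knockout and 0.10 in parent cells), and TUBA1A was lower in both, by -0.92 (SE 0.20, edgeR adjusted p = 0.0029) and -0.58 (SE 0.19, edgeR adjusted p = 0.025).

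**Figure D5:**
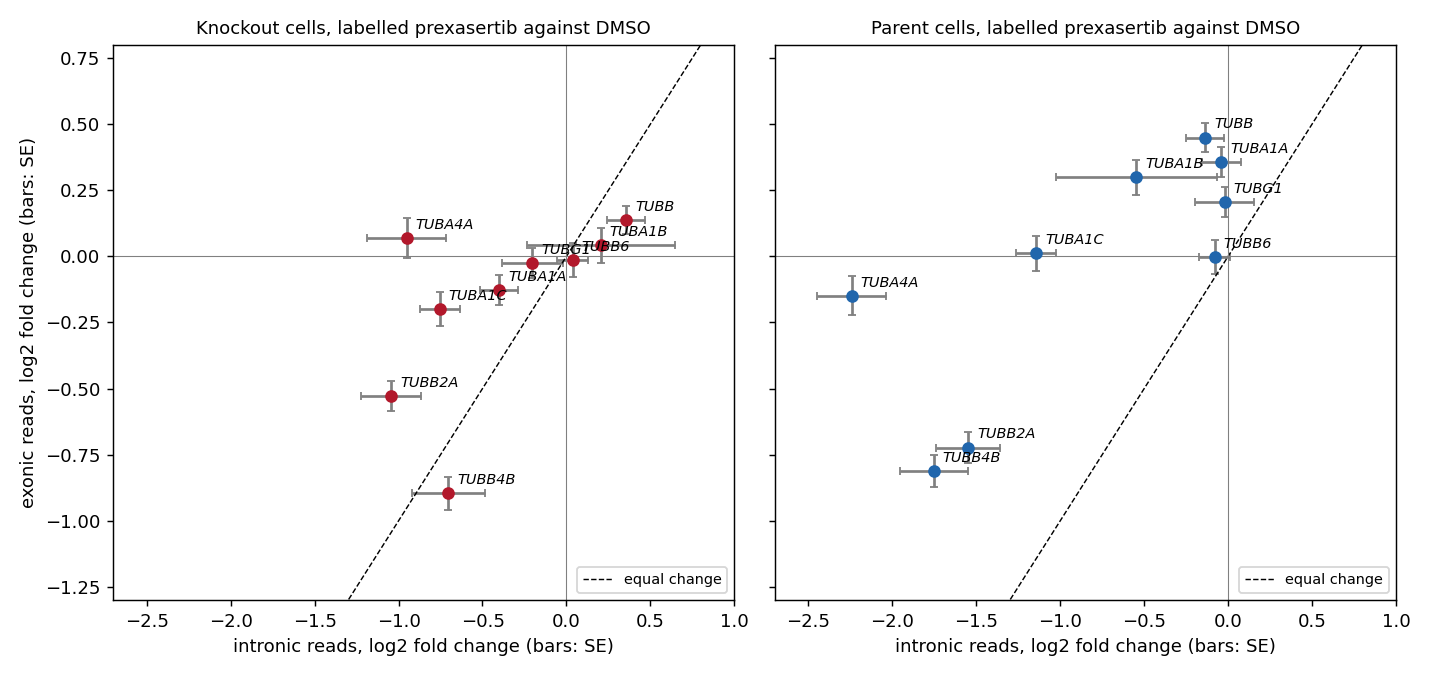
Log2 fold change of exonic reads (vertical) against intronic reads (horizontal), labelled prexasertib against labelled DMSO, for 9 tubulin genes in knockout (left) and parent (right) cells; bars are the SE and the dashed line marks equal change. In parent cells TUBA4A, TUBA1C, TUBB4B and TUBB2A lie above and left of the line, with intronic changes of -2.24, -1.14, -1.75 and -1.55, and in knockout cells TUBB4B lies near the line.

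Between the lines, intronic reads of TUBB4B were lower in knockout cells in labelled DMSO, at -1.34 (SE 0.19, edgeR adjusted p = 1.7e-05), although its exonic reads were slightly higher there. In labelled prexasertib the value was -0.29 (SE 0.23, edgeR adjusted p = 0.42). TUBA4A differed by -0.55 (SE 0.24, edgeR adjusted p = 0.12) in labelled prexasertib and -1.84 (SE 0.20, edgeR adjusted p = 2.8e-07) in labelled DMSO. TUBB2A, higher in knockout exonic reads in both comparisons, differed in intronic reads by 0.67 (SE 0.20, edgeR adjusted p = 0.021) in labelled prexasertib and 0.16 (SE 0.17, edgeR adjusted p = 0.50) in labelled DMSO. The TUBB2A call was lost without knockout labelled prexasertib replicate 2 or 3 or parent labelled prexasertib replicate 1 (edgeR adjusted p = 0.050 to 0.16). Without that parent library TUBA4A (-0.79, edgeR adjusted p = 0.022) and TUBG1 (-0.63, edgeR adjusted p = 0.0077) were called lower in labelled prexasertib. Intronic calls numbered 2 higher and 0 lower (2 lower at an unadjusted p under 0.05, edgeR) in labelled prexasertib, where 18.8% of all genes were called in either direction, and 1 higher and 2 lower in labelled DMSO, where 30.3% were. The calls of TUBA1A, higher in both, did not hold with reads outside other genes. Those gave -0.42 (edgeR adjusted p = 0.17) in labelled prexasertib and -0.08 (edgeR adjusted p = 0.79) in labelled DMSO. With such reads, 11.5% of its intronic reads, TUBB6 was called higher in both. Its values were 0.51 (SE 0.15, edgeR adjusted p = 0.018) in labelled prexasertib and 0.54 (SE 0.15, edgeR adjusted p = 0.0089) in labelled DMSO.

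The intronic response of the lines also differed. The interaction, parent less knockout, was -1.05 for TUBB4B (SE 0.30, edgeR adjusted p = 0.028), with responses of -0.70 in knockout and -1.75 in parent cells. For TUBA4A it was -1.29 (SE 0.32, edgeR adjusted p = 0.012), with responses of -0.95 and -2.24. These 2 members were called below 0 and 0 above (1 above at an unadjusted p under 0.05, edgeR), where 9.84% of all genes were called in either direction. The TUBB4B value was lost in 7 of the 12 fits that each left out 1 library (edgeR adjusted p = 0.051 to 0.10): those without parent labelled DMSO replicate 2 or 3, knockout labelled DMSO replicate 1 or 2, or any 1 of the 3 knockout labelled prexasertib libraries. The TUBB interaction of -0.49 (SE 0.16, edgeR adjusted p = 0.059) passed without parent labelled prexasertib replicate 2 or 3 (edgeR adjusted p = 0.039 and 0.043), and that of TUBA1A, 0.36 (SE 0.16, edgeR adjusted p = 0.17), passed without parent labelled prexasertib replicate 1 (0.54, edgeR adjusted p = 0.00013).

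The change of exonic reads less that of intronic reads was tested in 1 model over both kinds of counts, for 17090 genes and 9 members. A value above 0 means that exonic reads fell by less, or rose by more, than intronic reads. In knockout cells 3 members were called above 0 and 0 below, against 2.35% and 1.76% of all genes. In parent cells 6 were called above 0 and 0 below, against 8.39% and 10.8%. At an unadjusted p under 0.05 edgeR gave 1 below 0 in knockout cells and 0 in parent cells. The median of the members was 0.19 in knockout cells and 0.85 in parent cells, where the medians of all genes were -0.01 and 0.03.

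TUBA4A had the largest value of the members in both lines, at 1.03 (SE 0.20, edgeR adjusted p = 0.0065) in knockout cells and 2.12 (SE 0.16, edgeR adjusted p = 1.3e-07) in parent cells. With reads outside other genes the knockout value did not pass (0.74, edgeR adjusted p = 0.18). TUBB2A gave 0.53 (SE 0.14, edgeR adjusted p = 0.038) in knockout cells and 0.85 (SE 0.16, edgeR adjusted p = 0.00094) in parent cells. Its knockout call was lost in 6 of the 12 fits that each left out 1 library (edgeR adjusted p = 0.053 to 0.21): those without parent labelled DMSO replicate 1, any 1 of the 3 knockout labelled DMSO libraries, or knockout labelled prexasertib replicate 1 or 2.

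TUBB4B gave -0.19 (SE 0.19, edgeR adjusted p = 0.70) in knockout cells and 0.95 (SE 0.16, edgeR adjusted p = 0.00041) in parent cells. TUBB gave -0.21 (SE 0.10, edgeR adjusted p = 0.27) in knockout cells and 0.61 (SE 0.10, edgeR adjusted p = 0.00024) in parent cells. TUBA1C passed in both lines, at 0.57 (SE 0.08) in knockout and 1.19 (SE 0.08) in parent cells, but in neither with reads outside other genes (edgeR adjusted p = 0.91 and 0.48). TUBA1A passed in parent cells, at 0.43 (SE 0.09, edgeR adjusted p = 0.0029), and its knockout value of 0.28 (SE 0.09, edgeR adjusted p = 0.076) passed without parent labelled prexasertib replicate 1 or 3 (edgeR adjusted p = 0.0022 and 0.039). With reads outside other genes TUBA1A passed in both lines, at 0.80 (SE 0.17, edgeR adjusted p = 0.012) in knockout and 0.99 (SE 0.16, edgeR adjusted p = 0.00056) in parent cells.

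The difference between the lines passed for 4 members above 0 and 0 below, against 3.09% and 4.97% of all genes, and 0 were below at an unadjusted p under 0.05 by edgeR. Parent less knockout, it was 1.13 for TUBB4B (SE 0.25, edgeR adjusted p = 0.0090), 1.09 for TUBA4A (SE 0.27, edgeR adjusted p = 0.017), 0.82 for TUBB (SE 0.14, edgeR adjusted p = 0.0015) and 0.62 for TUBA1C (SE 0.11, edgeR adjusted p = 0.0029). TUBA4A lost the call without knockout labelled prexasertib replicate 1 or 2 (edgeR adjusted p = 0.066 and 0.057), and TUBA1C with reads outside other genes (edgeR adjusted p = 0.59). Between the lines 1 member was called above 0 in labelled prexasertib and 6 in labelled DMSO, with 0 below 0 in either, against 4.59% and 8.36% of all genes above 0 and 4.24% and 11.5% below. At an unadjusted p under 0.05 edgeR gave 1 below 0 in labelled prexasertib and 0 in labelled DMSO. The largest in labelled DMSO was TUBB4B, at 1.53 (SE 0.15, edgeR adjusted p = 1.2e-06). TUBG1 was among those 6, at 0.49 (SE 0.14, edgeR adjusted p = 0.018), and lost the call without parent labelled DMSO replicate 1 or knockout labelled DMSO replicate 2 or 3 (edgeR adjusted p = 0.062 to 0.10). The member called in labelled prexasertib was TUBB2A, at 0.61 (SE 0.17, edgeR adjusted p = 0.035). Its call was lost without parent labelled prexasertib replicate 1, 2 or 3 or knockout labelled prexasertib replicate 1 or 2 (edgeR adjusted p = 0.062 to 0.13). With reads outside other genes TUBA1A passed in both, at 0.87 (SE 0.18, edgeR adjusted p = 0.0070) in labelled prexasertib and 1.055 (SE 0.15, edgeR adjusted p = 0.00014) in labelled DMSO. With those reads TUBB6 also passed in labelled DMSO (0.55, edgeR adjusted p = 0.042), and TUBA1C lost its call there (0.68, edgeR adjusted p = 0.077).

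Across the 12 libraries the members fell into patterns by their log2 CPM, given as a description because the libraries share line and treatment. TUBB2A and TUBB2B followed each other closely (Pearson r = 0.993 over 12 libraries), as did TUBA1A and TUBA1B (0.954). Both pairs are near-identical copies whose reads may be assigned to the wrong copy, and whether this added to their likeness was not tested. TUBA4A ran opposite to TUBA1A (-0.939), and TUBB4B was almost unrelated to TUBA1A (0.053) and ran against TUBB (-0.477). Among 11018 protein-coding genes outside the tubulin superfamily, the 2 nearest to TUBB2A were PAX6 (0.984), a transcription factor gene, and TRIM36 (0.976), and those nearest to TUBB2B were ARHGEF10 (0.982) and ANGPTL2 (0.979). Nearest to TUBB4B were FAM166A (0.988), which overlaps it in the files and may share its reads, and SAPCD2 (0.987).

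For TUBB the nearest were SNX22 (0.998) and PPIB (0.995), a cyclophilin gene of the endoplasmic reticulum that overlaps SNX22 in the files. For TUBA1A they were TMSB10 (0.991), which encodes an actin-binding thymosin, and LCN10 (0.990), for TUBA1B YBX1 and RPUSD3 (0.990 each), for TUBA1C DCAF11 (0.986) and NUP37 (0.977), and for TUBA4A DDX1 (0.980) and ID3 (0.977). TUBB6 was nearest to the overlapping myosin light chain genes MYL6B (0.983) and MYL6 (0.981). TUBG1 had the weakest likeness, to TIMP1 (0.957) and SLC35B2 (0.954).

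Genes that act with tubulin were read from lists for the same contrasts, with calls by edgeR unless another tool is named. The edgeR counts are to be set beside the edgeR shares of all genes. For the treatment these were 6.11% higher and 6.83% lower in knockout cells and 18.2% in each direction in parent cells. Between the lines they were 14.5% higher and 13.5% lower in labelled prexasertib and 19.6% higher and 20.4% lower in labelled DMSO. No share of all genes is given for limma on TPM, so its counts cannot be read against one. On its scale the median of all genes stood higher than by edgeR. The shift was 0.05 in parent cells and, between the lines, 0.10 in labelled prexasertib and 0.16 in labelled DMSO. Of 15 mitotic spindle microtubule proteins all 15 were called lower in labelled prexasertib by edgeR in knockout cells, with a median of -0.77, and all 15 in parent cells, with a median of -1.12. PSRC1, a spindle protein, differed by -1.56 (SE 0.06) in knockout and -2.03 (SE 0.06) in parent cells, and HMMR, which binds spindle microtubules, by -1.78 (SE 0.06) in parent cells. In labelled DMSO 14 of the 15 were lower in knockout than in parent cells and 0 were higher, while limma on TPM called 6 lower and 1 higher. In labelled prexasertib 3 were higher and 1 was lower, and limma on TPM called 6 higher and 1 lower. The interaction was called below 0 for 12 of them, or 8 with limma on TPM, where edgeR called 9.53% of all genes below 0.

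Among 21 genes of tubulin folding and dimer assembly (chaperonin, prefoldin and cofactor genes), 0 were called in knockout cells by edgeR, DESeq2 or limma on TPM, and 2 were lower at an unadjusted p under 0.05 by edgeR, of which TBCC, a folding cofactor, had the smallest p (-0.21, SE 0.08, edgeR adjusted p = 0.11). In parent cells 6 were higher and 1, TBCC, was lower, at -0.51 (SE 0.09), while the chaperonin subunit TCP1 was higher at 0.32 (SE 0.05), and limma on TPM called 16 higher and 1 lower. In knockout against parent cells 12 were higher and 1 lower in labelled prexasertib, and 16 were higher and 1 lower in labelled DMSO, among them TCP1 at 0.60 (SE 0.05) and TBCB, another cofactor, at 0.53 (SE 0.06). For these comparisons limma on TPM called 18 and 19 higher and 0 lower. Of 12 genes of tubulin mRNA autoregulation and CCR4-NOT, 1 was higher and 1 lower in knockout cells, and 4 were higher and 2 lower in parent cells, while limma on TPM called 1 higher and 0 lower in knockout cells and 5 higher and 1 lower in parent cells. These are few genes, and 1 or 2 edgeR calls are near the shares over all genes. SCAPER, which recruits CCR4-NOT to TTC5, was higher by 0.29 (SE 0.06, edgeR adjusted p = 0.0019) in knockout cells, and CNOT3, a CCR4-NOT subunit, differed by -0.28 (SE 0.09, edgeR adjusted p = 0.034) in knockout and -0.49 (SE 0.09, edgeR adjusted p = 7.9e-05) in parent cells.

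Of 20 genes of the gamma-tubulin ring complex and augmin, 1 was higher and 3 were lower in knockout cells, and 6 were higher and 7 lower in parent cells, where NEDD1, which targets the ring complex, fell by 0.41 (SE 0.05) on the log2 scale. With limma on TPM, 0 of the ring complex and augmin genes were higher and 2 lower in knockout cells, and 7 were higher and 4 lower in parent cells. Tubulin modifying enzymes, 20 in all, had 1 higher and 2 lower in knockout cells and 5 higher and 3 lower in parent cells, while limma on TPM called 0 higher and 1 lower in knockout cells and 10 higher and 0 lower in parent cells. HDAC6, a tubulin deacetylase, differed by -0.47 (SE 0.06) in knockout cells, and TTLL12 differed by 0.65 (SE 0.06) in parent cells. The 23 tested genes of microtubule dynamics, severing and plus ends had 5 higher and 3 lower in knockout cells and 15 higher and 1 lower in parent cells, while limma on TPM called 2 higher and 1 lower in knockout cells and 19 higher and 1 lower in parent cells. The gene that edgeR called lower in parent cells was KATNA1, the severing enzyme katanin, which differed by -0.47 (SE 0.06) in knockout and -0.75 (SE 0.06) in parent cells. Among 10 tested of 12 other tubulin superfamily genes, 0 were called in knockout cells by edgeR, DESeq2 or limma on TPM (1 higher and 2 lower at an unadjusted p under 0.05 by edgeR), and 1 was higher and 3 were lower in parent cells (2 higher and 1 lower with limma on TPM), where TUBE1, an epsilon-tubulin gene, differed by -0.56 (SE 0.07). TUBB4A, a beta gene read at low level, was higher in knockout cells, with 1.81 ± 0.35 CPM against 0.328 ± 0.149 CPM in parent cells in labelled prexasertib, and 1.85 ± 0.29 CPM against 0.247 ± 0.081 CPM in labelled DMSO (SD, n = 3 each). Its log2 fold change was 2.43 (SE 0.29, edgeR adjusted p = 3.0e-07) in labelled prexasertib and 2.87 (SE 0.29, edgeR adjusted p = 9.6e-09) in labelled DMSO.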

How the data were processed

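Total RNA of CCRF-CEM cells was sequenced, per the labels' protocols, as paired ends on 1 Illumina HiSeq4000 run. The deposited files give, per the file headers, read counts and TPM per gene for all, exonic and intronic reads, and for reads outside other genes. The submitters' processing notes name Picard 2.9.2, STAR 2.5.4a, Trim Galore 0.6.2, Trimmomatic 0.39 and hg19; for the counting tool, annotation and strand setting, nothing is given in the sources used here. File positions are 0-based at both ends, so 1 was added.

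From the deposited counts, genes absent from a file were set to 0, and edgeR 4.0.16 (R 4.3.3; TMM, filterByExpr with a minimum count of 10, robust quasi-likelihood, 4 group means over 12 libraries) gave every contrast, with Benjamini-Hochberg adjustment over all genes tested and a threshold of 0.05. Any adjusted p not credited to another tool is edgeR's. SE is the log2 fold change over the root of F. The exonic less intronic change was fitted over 24 columns with a term per library. The TPM values, normalized by the authors, were used for levels between genes and with limma 3.58.1 on log2(TPM + 1). The edgeR and exonic less intronic fits were tested on simulated data. Each library held 47887791 to 77548202 exonic and 16764538 to 26736753 intronic reads; low intronic counts limit precision. Columns of other samples numbered 0.

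Alternatives were RLE size factors, DESeq2 1.42.0, other filters, all reads, reads outside other genes, limma on TPM, fits of only the groups compared, a replicate block and leaving out each library. The intronic alternative with reads outside other genes was chosen after seeing the data. All 10 tubulin genes were named, with the 2 genes of smallest p per list and contrast and the 2 genes most like each member by Pearson r among genes with mean log2 CPM of at least 1. The members, lists and tests were chosen with earlier results of these data known. Same-numbered libraries showed little shared deviation (1 of 18 correlations was over 0.1), which cannot tell whether the numbers pair the samples. The main fits did not use the numbers as pairs, and the replicate block was the alternative that did.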

Additional observations from a re-analysis of the deposited data

Results flagged for a closer look

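The response of 5 tubulin genes differed between the lines in at least 1 readout, by a test of the difference itself, given as the parent response less the knockout response. In exonic reads this was 0.48 for TUBA1A and 0.31 for TUBB, where 7.32% of all genes were called above 0 and 9.53% below. The TUBB value did not pass with all reads. In intronic reads the difference was -1.29 for TUBA4A and -1.05 for TUBB4B, where 9.84% of all genes were called in either direction. The TUBB4B call was lost in 7 of the fits that each left out 1 library. In the change of exonic less intronic reads the difference was 1.13 for TUBB4B, 1.09 for TUBA4A, 0.82 for TUBB and 0.62 for TUBA1C. Here 3.09% of all genes were called above 0 and 4.97% below, and the TUBA4A call was lost in 2 of the fits that each left out 1 library. Only 2.73% of the exonic and 5.54% of the intronic reads of TUBA1C lie outside other genes, and with those its value did not pass (edgeR adjusted p = 0.59). All 8 values change sign if the library names rather than the records give the treatment.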

How the results depend on the processing

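Under settings other than leaving out a library, 145 counts of called members stayed within 1.5 times the reported count and 13 did not. The cause was not tested. In parent cells 2 members were called higher with all reads. In knockout cells 1 was called higher with a mean CPM of at least 1, with reads outside other genes, with only the groups compared, with DESeq2 and with limma on TPM. For the interaction 4 were above 0 and 1 below with a mean CPM of at least 1, 1 was above with all reads and 5 were above with limma on TPM. With intronic reads outside other genes 0 were higher and 3 lower in knockout cells. With the exonic less intronic change outside other genes 2 were above 0 between the lines in labelled prexasertib.

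Single genes changed sign as follows. For the treatment in knockout cells TUBB6 gave 0.0011 with all reads and 0.0013 with limma. In parent cells TUBA1C gave -0.0066 with no filter, -0.0043 with a mean CPM of at least 1, -0.075 with all reads and -0.45 outside other genes, and TUBB6 gave 0.26 outside other genes and 0.12 with limma. Between the lines in labelled prexasertib TUBG1 gave 0.014 with all reads and 0.12 with limma. The TUBB6 interaction was -0.0078 with a mean CPM of at least 1 and -0.012 with all reads. Outside other genes, intronic TUBB6 gave 0.36 for the treatment in parent cells and 0.034 for the interaction, TUBA1A gave -0.42 in labelled prexasertib and -0.079 in labelled DMSO between the lines, and TUBA1C and TUBA4A gave -0.16 and 0.091 in labelled prexasertib. The exonic less intronic change outside other genes was -0.10 for TUBA1C in knockout cells and -0.061 for TUBB6 in parent cells. Between the lines it was 0.87 in labelled prexasertib and 1.06 in labelled DMSO for TUBA1A, and 0.10 in labelled prexasertib for TUBB6.

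Leaving out 1 library at a time, the exonic count of members called higher ranged over 0 to 1 in knockout cells, and for the interaction over 2 to 5 above 0 and 0 to 2 below. Intronic counts ranged over 0 to 1 higher and 2 to 5 lower in knockout cells, 1 to 3 higher and 0 to 2 lower between the lines in labelled prexasertib, 1 to 2 higher in labelled DMSO, and 0 to 1 above and 1 to 3 below for the interaction. The exonic less intronic count in labelled prexasertib ranged over 0 to 1 above and 0 to 1 below. Exonic changes that crossed 0 were TUBB6 (-0.039 to 0.014) and TUBG1 (-0.066 to 0.0063) in knockout cells, TUBA1C (-0.058 to 0.086) and TUBB6 (-0.064 to 0.056) in parent cells, TUBG1 between the lines in labelled prexasertib (-0.083 to 0.0055) and the TUBB6 interaction (-0.050 to 0.066). Intronic changes that did so were TUBA1B in knockout cells (-0.373 to 0.526), TUBA1A (-0.143 to 0.136), TUBB6 (-0.163 to 0.0643) and TUBG1 (-0.191 to 0.139) in parent cells, TUBA1C in labelled prexasertib (-0.0082 to 0.254), TUBA1B in labelled DMSO (-0.113 to 0.476) and the TUBB6 interaction (-0.201 to 0.027). For the exonic less intronic change they were TUBA1B in knockout cells (-0.463 to 0.457), TUBA1C (-0.0336 to 0.108), TUBA4A (-0.281 to 0.092) and TUBB6 (-0.0996 to 0.0217) in labelled prexasertib, and the TUBG1 interaction (-0.0351 to 0.205).

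With the replicate number as a block, the interaction had 3 members above 0 instead of 2, TUBG1 passing at 0.23 (edgeR adjusted p = 0.032). Intronic TUBB6 in labelled prexasertib (0.28, edgeR adjusted p = 0.021) and the intronic TUBB interaction (-0.49, edgeR adjusted p = 0.028) also passed. The block ended no call. Same-numbered libraries correlated at -0.058 to 0.12 in their deviations from the group means. Little shared deviation was thus seen, but such values cannot tell whether the labels' numbers pair the samples. Low intronic counts and reads shared between genes set the limits of the values of TUBA1B, TUBA1C, TUBA4A and TUBB6.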

Other observations

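Other genes of the microtubule system differed between the lines. VASH2, which encodes a tubulin tyrosine carboxypeptidase, was higher in knockout cells by 0.71 (SE 0.08, edgeR adjusted p = 1.3e-07) in labelled prexasertib and by 0.80 (SE 0.08, edgeR adjusted p = 6.9e-09) in labelled DMSO. AGTPBP1, which encodes a deglutamylase of the tubulin tail, was higher by 0.31 (SE 0.06) and 0.33 (SE 0.06) in the same comparisons. STMN1, which encodes the dimer-binding protein stathmin, averaged 1243 ± 43.5 CPM in knockout cells and 942 ± 75.9 CPM in parent cells in labelled prexasertib (SD, n = 3 each), which is 0.40 higher on the log2 scale (SE 0.06, edgeR adjusted p = 3.6e-06), and was higher by 0.50 (SE 0.06, edgeR adjusted p = 4.9e-08) in labelled DMSO. CAMSAP2, a minus-end binding protein gene, was near the limit of detection in knockout cells labelled prexasertib, with 0.107 ± 0.063 CPM against 1.39 ± 0.05 CPM in parent cells so labelled.

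Some responses of such genes also differed between the lines. The parent response less the knockout response was -0.74 for HMMR (SE 0.09, edgeR adjusted p = 1.1e-06), -0.40 for NEDD1 (SE 0.07, edgeR adjusted p = 0.00022), 0.51 for MAP7D3, which encodes a microtubule-binding protein (SE 0.08, edgeR adjusted p = 9.6e-05), and 0.31 for TCP1 (SE 0.07, edgeR adjusted p = 0.0028).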
